A study of Mus musculus with 18 samples.

Results

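Ribosome-bound RNA pulled down from the retina was compared with ribosome-bound RNA pulled down from the brain, in mice carrying an endothelial ribosome tag. The comparison took the 3 Retina Positive and the 3 Brain Positive libraries, over every gene listed in both tissues' tables. That gave 12438 genes, out of 12827 listed for retina, 13957 for brain and 14411 in any table of the series. Of the 12438 genes, 5168 were absent from the choroid table. The series holds 18 libraries from brain, retina and choroid, 3 Input and 3 Positive for each tissue.

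All groups carried the same alleles and treatment, Cdh5(PAC)-cre/ERT2+ and NuTRAP+ with tamoxifen induction, so the labels set them apart by tissue and fraction. Cdh5(PAC)-cre/ERT2 is a tamoxifen-activated recombinase under the promoter of vascular endothelial cadherin. NuTRAP is a reporter that, after recombination, places GFP on a protein of the large ribosomal subunit, L10a. An antibody against GFP then pulls down the tagged ribosomes with their RNA, which is the Positive fraction, while the Input is RNA of the same homogenate kept before the pull-down. Any cell that recombined the reporter can contribute to the Positive fraction, and RNA that sticks to the beads can also be carried along. The submitters' design speaks of 3 biological replicates per tissue and gives neither the number, age nor sex of the animals nor any pooling, so a p-value here reflects the variation among 3 libraries a side, part of which could be technical. In such bulk RNA, fewer cells of a type and less RNA per cell cannot be told apart.

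Endothelial cells of the brain and of the inner retina both form a tight barrier. They seal their borders with claudin-5, suppress vesicular transport, import glucose and amino acids through solute carriers, and export drugs through ABC pumps. Barrier formation in both tissues depends on beta-catenin signalling, driven in brain by WNT7A and WNT7B through the co-receptors GPR124 and RECK, and in retina by norrin through frizzled-4, LRP5 and TSPAN12. The retina is otherwise a sheet dominated by rod photoreceptors, with high glycolysis and no meningeal cover of its own, whereas a dissected brain can carry meninges with their fibroblasts.

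The endothelial markers were present in both pull-downs. Vascular endothelial cadherin (Cdh5, Entrez gene 12562, mm10 chr8:104101625-104144502), the gene whose promoter drives the recombinase, stood at 199, 230 and 441 CPM (the gene's counts scaled to a common library size) in Retina Positive 1, 2 and 3 and at 350, 380 and 346 in Brain Positive. In Input it stood at 2.87, 2.27 and 4.04 CPM in retina and at 10.2, 10.5 and 11.6 in brain. The median Positive over Input log2 fold change of 25 pan-endothelial markers was 6.29 in retina and 5.11 in brain. These 25 markers made up 0.534%, 0.549% and 1.06% of the counts of tested genes in Retina Positive 1, 2 and 3, against 1.13%, 1.08% and 1.06% in Brain Positive. Retina Positive 3 thus matched the brain libraries, and Retina Positive 1 and 2 held about the same lower share as each other. Counts over the tested genes ran from 11463306 to 24850289 in Retina Positive and from 30556123 to 39277814 in Brain Positive. Log2 CPM correlated at 0.969 to 0.993 between libraries of a tissue and at 0.750 to 0.807 between tissues, across genes, which are not independent replicates. Xist, the long RNA of the inactive X chromosome, was listed in the Retina table alone, at 18 estimated counts in Retina Input 1 and 96 in Retina Positive 1 against 2282 to 18057 in the other 4 retina libraries. The sex of the animals is not given. Whether sex differs among the retina libraries, or between the tissues, was not tested.

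**Figure D1:**
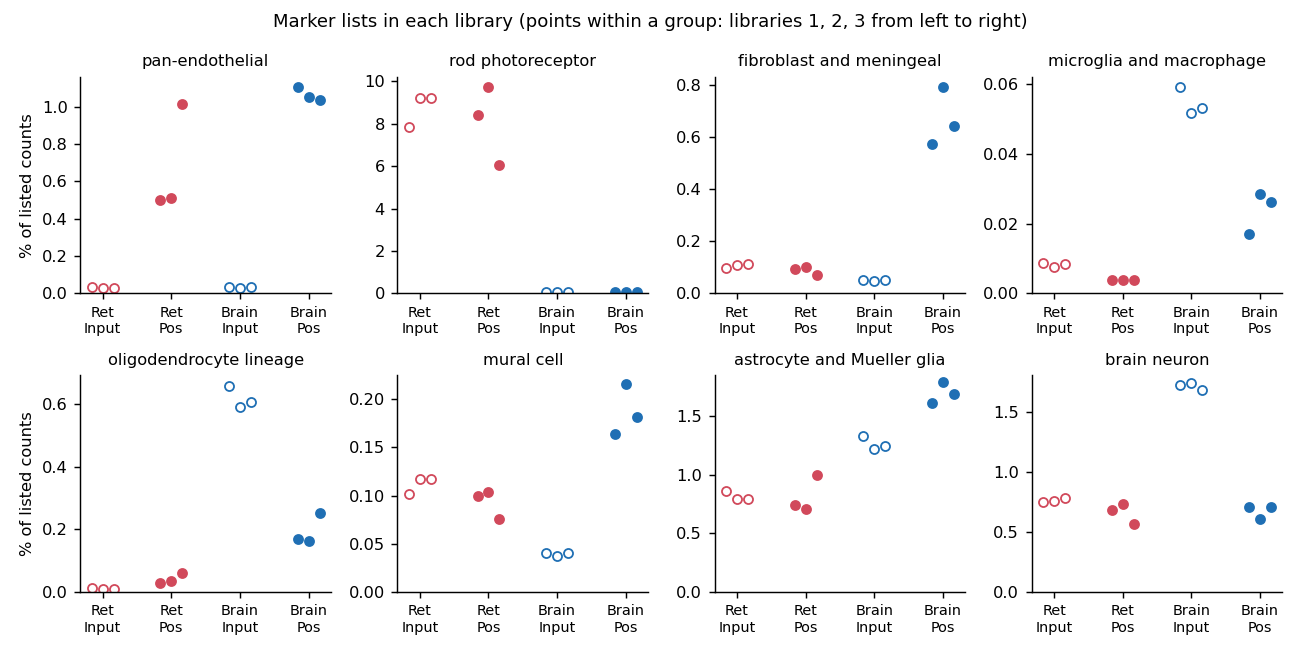
Share of listed counts (%, y axes from 0) held by 8 marker lists in each library of retina (red) and brain (blue), with Input as open and Positive as filled points. Each share sums every list member listed for that tissue, so members listed for 1 tissue alone count there only. Retina Positive 3 holds 1.02% pan-endothelial counts against 0.501% and 0.510% in Retina Positive 1 and 2, while rod genes stay at 6.05% to 9.71% in all 3.

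Because of this difference, each endothelial gene group below is given on 2 scales. The first is the trimmed mean of M values (TMM), which centres the bulk of all genes. The second, called pan-endothelial scaling, divides each library by its summed counts of the 25 pan-endothelial markers, so that a value says how a gene compares with endothelial RNA. It does not remove RNA of other cells. On it, 7 of 8 tested fibroblast and meningeal genes were higher in brain, with a median of -4.66, against 6.46% of all genes. A gene lower in retina on both scales is thus not thereby placed in the endothelium. Switching between them moved the median log2 fold change of all genes by 0.78, a factor of 1.72.

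On TMM scaling, 8725 of 12438 genes (70.1%) differed between Retina and Brain Positive at an adjusted p under 0.05 in edgeR's quasi-likelihood test. Of these, 4489 (36.1%) were higher in retina and 4236 (34.1%) in brain, and 1870 and 1750 of them by at least 2-fold. On pan-endothelial scaling 6097 genes (49.0%) were higher in retina and 804 (6.46%) in brain. The share of calls that were higher in retina thus went from 51.4% to 88.3%. The change of scale moves all genes toward retina about alike, so the second scale bears mainly on calls higher in brain. Without Retina Positive 3, TMM scaling called 4726 (38.0%) higher in retina and 4653 (37.4%) higher in brain. With Retina Positive 1 and 2 only, pan-endothelial scaling called 9579 higher in retina and 1237 higher in brain. These shares are the background for the counts of every gene group below.

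**Figure D2:**
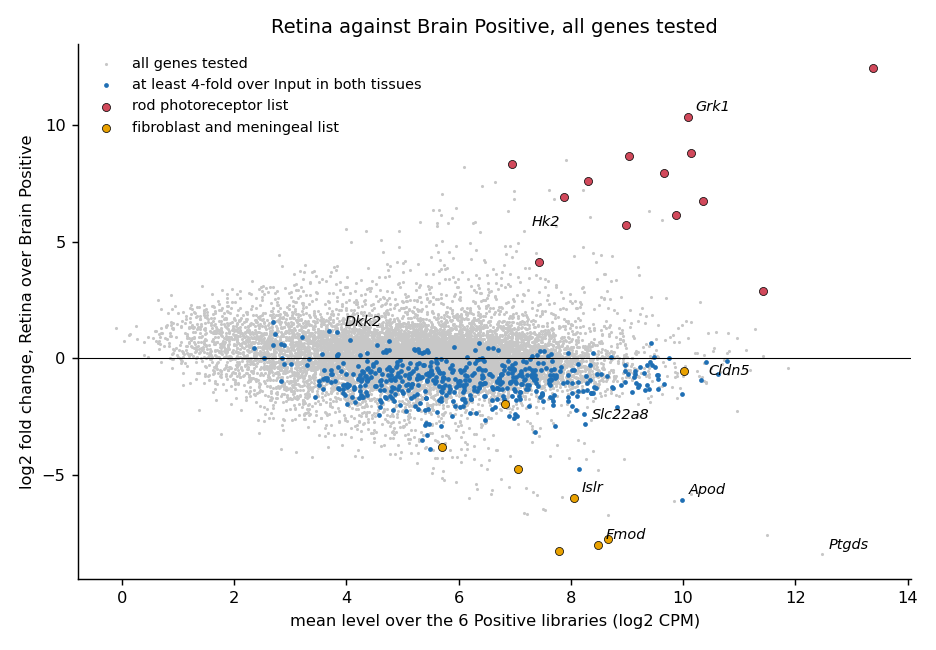
Mean level over the 6 Positive libraries (log2 CPM, x axis) against the log2 fold change of Retina over Brain Positive (y axis, TMM scaling) for 12438 genes. Rod genes lie at or above 2.86, fibroblast and meningeal genes reach down to -8.25, and the 523 genes at least 4-fold over Input in both tissues have a median of -0.90.

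The largest differences on the retina side, by the rule given in the processing notes, included Grk1, Pde6a, Cngb1, Rtbdn, Impg2, Ppef2, Reep6, Gucy2e, Gpr179, Mak and Mpp4. Grk1, a receptor kinase that ends the light response of rods, stood at 2136, 2474 and 1923 CPM in Retina Positive and at 1.36, 1.50 and 2.11 in Brain Positive, a log2 fold change of 10.35 ± 0.24 (SE, adjusted p = 1.5e-07). The retina and brain values were far from overlapping, and the lowest retina value was in Retina Positive 3, the library with the highest endothelial share. All 13 rod genes tested were higher in retina. They were not enriched by the pull-down, with a median Positive over Input log2 fold change of -0.28 in retina, and Grk1 was at 2530, 3118 and 2703 CPM in Retina Input. Rod genes listed in the Retina table alone, such as Gnat1 (rod transducin), behaved alike, at 11858, 14814 and 8839 CPM in Positive and 1.05 times the Input mean. Whether RNA carried over from whole retina sets these values was not tested.

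Rod genes are switched on by the homeodomain factors CRX and OTX2, which bind sites built on TAATCC. Otx2 itself stood at 163, 180 and 121 CPM in Retina Positive and at 2.36, 2.94 and 2.78 in Brain Positive. Promoter windows from RefSeq (GRCm38.p6, 250 bases before to 50 after the start) existed for 9 of the 12 genes with the largest retina differences, and 6 of these 9 (66.7%) held TAATCC on either strand, against 9.21% of 1466 genes called at least 2-fold higher in retina, 6.75% of 9892 tested genes and 8.14% of all 27025 genes with a window. In the rod list 13 of 27 genes with a window (48.1%) held it. These 3 windows are shown because they sit at 3 of those genes, with TAATCC or its reverse complement GGATTA in capitals. A match describes the letters only. They lie at chr11:69236973-69237272 (minus strand), chr8:95306536-95306835 (minus) and chr8:84946741-84947040 (plus).
Gucy2e: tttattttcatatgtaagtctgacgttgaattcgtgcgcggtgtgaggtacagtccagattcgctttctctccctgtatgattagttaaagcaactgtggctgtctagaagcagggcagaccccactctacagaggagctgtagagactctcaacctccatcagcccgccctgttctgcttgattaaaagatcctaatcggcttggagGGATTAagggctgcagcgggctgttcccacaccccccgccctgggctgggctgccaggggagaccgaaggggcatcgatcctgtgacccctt
Cngb1: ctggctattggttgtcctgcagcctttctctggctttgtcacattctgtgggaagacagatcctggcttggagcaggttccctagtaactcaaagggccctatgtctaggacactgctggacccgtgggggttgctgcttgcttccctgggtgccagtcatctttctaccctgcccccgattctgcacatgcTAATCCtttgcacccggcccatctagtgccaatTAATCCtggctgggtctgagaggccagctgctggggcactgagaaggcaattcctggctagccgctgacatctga
Rtbdn: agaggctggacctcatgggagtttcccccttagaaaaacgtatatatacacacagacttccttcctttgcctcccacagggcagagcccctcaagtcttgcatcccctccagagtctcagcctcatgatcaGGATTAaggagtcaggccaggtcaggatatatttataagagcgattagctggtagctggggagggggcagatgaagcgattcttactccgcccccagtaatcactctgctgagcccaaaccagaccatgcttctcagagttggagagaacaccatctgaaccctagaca
Gucy2e, the guanylate cyclase that restores cGMP in photoreceptors, stood at 602, 699 and 587 CPM in Retina Positive and at 3.19, 3.18 and 3.26 in Brain Positive. Cngb1, a subunit of the rod cGMP-gated channel, stood at 1117, 1176 and 863 CPM against 1.96, 2.27 and 3.56. Rtbdn (retbindin) stood at 550, 560 and 342 CPM against 1.49, 1.27 and 1.23. All 3 genes were lowest among the retina libraries in Retina Positive 3.

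Genes of other retinal cells followed. Of 24 tested genes of bipolar, amacrine, horizontal and ganglion cells, 16 were higher in retina and 5 in brain. Of 17 eye-field and retinal transcription factors, 15 were higher in retina and 0 in brain. Pax6, a regulator of eye formation, stood at 235, 208 and 233 CPM against 24.0, 12.6 and 18.8, and Isl1, a factor of bipolar and ganglion cells, at 98.1, 122 and 73.2 against 1.76, 1.86 and 1.61. Rlbp1, the retinaldehyde-binding protein of Mueller glia and pigment epithelium, stood at 375, 305 and 572 CPM against 6.07, 8.75 and 9.74. Among these genes Rlbp1 was highest in Retina Positive 3 and Isl1 lowest there.

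The far end of the brain side was led by meningeal genes. Ptgds, prostaglandin D synthase, a secreted product of meninges and choroid plexus (Entrez gene 19215, chr2:25466712-25469749), stood at 33.9, 29.2 and 36.0 CPM in Retina Positive and at 11224, 11819 and 10863 in Brain Positive, a log2 fold change of -8.42 ± 0.18 (SE, adjusted p = 1.5e-07). Slc6a13, a GABA transporter of leptomeningeal cells, stood at 1.30, 1.05 and 1.76 CPM against 408, 516 and 387. Fmod, a collagen-binding proteoglycan, stood at 2.70, 1.58 and 3.69 CPM against 587, 867 and 683, and Col1a2, a chain of type I collagen, at 3.95, 2.98 and 4.13 against 625, 1003 and 788. Neither tissue's libraries came near the other's for these 4 genes. Other genes among the largest differences were Aebp1, Pcolce, Fbln1, Igfbp6, Ddn, Nnat and Apod, with log2 fold changes from -6.71 to -6.07.

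All 8 tested genes of the fibroblast and meningeal list were higher in brain, with a median log2 fold change of -5.37 against 0.01 over all genes. In brain the pull-down enriched them over whole tissue, with a median Positive over Input log2 fold change of 3.94, and in retina it did not (-0.30). The interaction of tissue and fraction was below 0 and past the threshold for all 8, against 2482 of all 12438 genes. Slc6a13 showed an interaction of -5.89 ± 0.33 (SE, adjusted p = 1.6e-07). The list made up 0.573% to 0.791% of listed counts in Brain Positive, 0.0462% to 0.0511% in Brain Input, 0.0701% to 0.100% in Retina Positive and 0.0974% to 0.1125% in Retina Input. The brain shares sum these 8 and 10 further members listed for brain alone, and the retina shares sum the 8 only. The median Input log2 fold change of the 8, retina over brain, was -2.05, so the higher Retina Input sum does not describe the typical member. Of the 1519 genes listed for brain and not for retina, 362 were at least 4-fold higher in Positive than in Input with no overlap. They include Aldh1a2 (retinoic acid synthesis), at 479, 578 and 471 CPM and 27.0 times its Input. Col1a1 was at 311, 506 and 378 CPM and 19.1 times, and Dcn at 366, 421 and 347 and 15.2 times. The sulfate transporter Slc13a4 was at 391, 510 and 391 CPM and 22 times. Of the 389 genes listed for retina and not for brain, 0 met that rule. Genes listed for 1 of these tissues alone passed the authors' filter there and not in the other. These counts are thus no test of the fibroblast difference, and no share over the genes listed for both tissues is given. The part of RNA from cells other than the endothelium in the brain pull-down was not tested.

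Other cell types differed between the pull-downs too. All 9 microglial genes tested were higher in brain, and 7 were also called on pan-endothelial scaling. The microglial list made up 0.0170% to 0.0284% of listed counts in Brain Positive and 0.0037% in each Retina Positive library. The brain share also sums 9 members listed for brain alone, so these shares do not cover the same genes. Complement C1qa stood at 0.791, 0.526 and 1.28 CPM in Retina Positive and at 9.03, 17.7 and 18.7 in Brain Positive, and the pull-downs lowered it relative to Input in both tissues, by log2 fold changes of -2.7 and -1.7. Of 8 mural cell genes, 3 were higher in retina and 4 in brain. The pericyte receptor Pdgfrb stood at 13.9, 9.04 and 16.8 CPM against 75.4, 113 and 83.0. Rgs5, a regulator of G-protein signalling in pericytes, went the other way at 27.2, 7.02 and 18 CPM against 10.9, 5.91 and 5.81, values that overlap (log2 1.24, adjusted p = 0.039, and 0.157 without Retina Positive 1, 0.122 without Brain Positive 2 and 0.12 without Brain Positive 3). Of 5 oligodendrocyte genes, 4 were higher in brain, with a median log2 fold change of -3.62. Of 22 astrocyte and Mueller glia genes, 4 were higher in retina and 14 in brain, and 5 and 8 on pan-endothelial scaling. Brain neuron genes numbered 10 higher in retina and 15 in brain of 28, and 12 and 10 on pan-endothelial scaling. Alpha-globin Hba-a1 stood at 18.7, 8.33 and 5.69 CPM against 62.6, 31.6 and 77.3, a value that is uncertain because near-identical globin copies share reads.

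To stay close to the endothelium, the comparison was repeated over genes enriched by both pull-downs. This class held 523 genes that were at least 4-fold higher in Positive than in Input, at an adjusted p under 0.05, in retina and in brain, and 390 of them were also listed for choroid. On TMM scaling 6 of the 523 were higher in retina and 328 in brain, with a median log2 fold change of -0.90. On pan-endothelial scaling 39 were higher in retina and 122 in brain, with a median of -0.26. In this second fit the spread of each gene was set entirely by the trend over all genes (coefficient of variation 0.299, against 0.143 on TMM scaling). Without Retina Positive 3 the TMM counts were 7 and 479, and without Retina Positive 1 the count higher in retina was 10. With Retina Positive 1 and 2 only, pan-endothelial scaling called 346 of the 523, 101 of them higher in retina.

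The class median, as log2 of a library's CPM over the Brain Positive mean, was -1.38 in Retina Positive 1, -1.28 in Retina Positive 2 and -0.34 in Retina Positive 3. The pan-endothelial sum moved with it, at -1.09, -0.99 and -0.051. Relative to that sum, most of whose genes are in the class, the medians of the 3 libraries were -0.28, -0.29 and -0.29. Single genes still differed between retina libraries on this scale, as the values of Cldn5 and Cav1 below show. Counted this way, 110 of the 523 genes were higher in all 3 retina libraries than in all 3 brain libraries, and 260 were lower in all 3. Over all 12438 genes these shares were 47.6% and 11.1%.

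**Figure D3:**
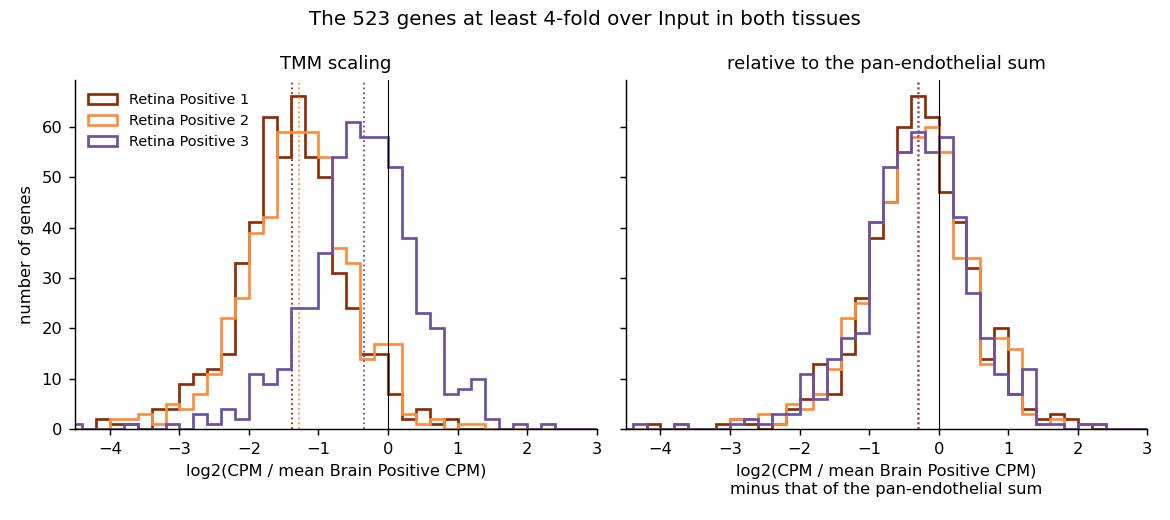
Histograms of the 523 class genes by log2 of CPM over the Brain Positive mean (x axis) in each Retina Positive library, on TMM scaling (left) and relative to the pan-endothelial sum (right), with dotted lines at the medians. The medians lie at -1.38, -1.28 and -0.34 on the left and between -0.29 and -0.28 on the right.

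The 6 class genes higher in retina on TMM scaling were Mndal, Dkk2, St8sia6, Naalad2, Atp10d and D830031N03Rik. Over genes at or above the median level their count was 0. Dkk2, a secreted modulator of Wnt signalling (Entrez gene 56811, chr3:132085292-132180304), stood at 17.5, 21.2 and 20.9 CPM in Retina Positive and at 7.90, 12.0 and 7.12 in Brain Positive, 2.20-fold higher (log2 1.14 ± 0.21, SE, adjusted p = 0.0018). Mndal, an interferon-inducible gene of the HIN-200 family, stood at 6.0, 7.37 and 15.6 CPM against 3.05, 2.97 and 3.96. No retina library overlapped a brain library for either gene. St8sia6, a sialyltransferase, was 2.06-fold higher, Naalad2, a peptidase, 1.85-fold, and Atp10d, a phospholipid flippase, 1.73-fold. The call of Atp10d ended without Brain Positive 1 (adjusted p = 0.0724) or 3 (0.0543).

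Class genes higher in brain included secreted and matrix genes with the largest differences. Apod, a lipid-binding apolipoprotein (Entrez gene 11815, chr16:31296192-31314596), stood at 21.1, 24.4 and 42.6 CPM in Retina Positive and at 2116, 2104 and 1732 in Brain Positive, a 67.2-fold difference. Islr stood at 5.39, 7.98 and 11.3 CPM against 490, 601 and 483, and the small proteoglycan Bgn at 30.8, 23.7 and 45.0 against 286, 330 and 271. These 3 genes were far apart between tissues in every library. Islr was also in the fibroblast and meningeal list, and the fibroblast values given above move with this direction. The other genes named by rule here were Itih5, Msx1, Emp3, Tfpi, Rcsd1, Car4, Akr1c14, Notum, Slc22a8, Hic1, Wls and Ifitm2, all at least 5.89-fold higher in brain, and all of the 15 passed on pan-endothelial scaling as well.

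**Figure D4:**
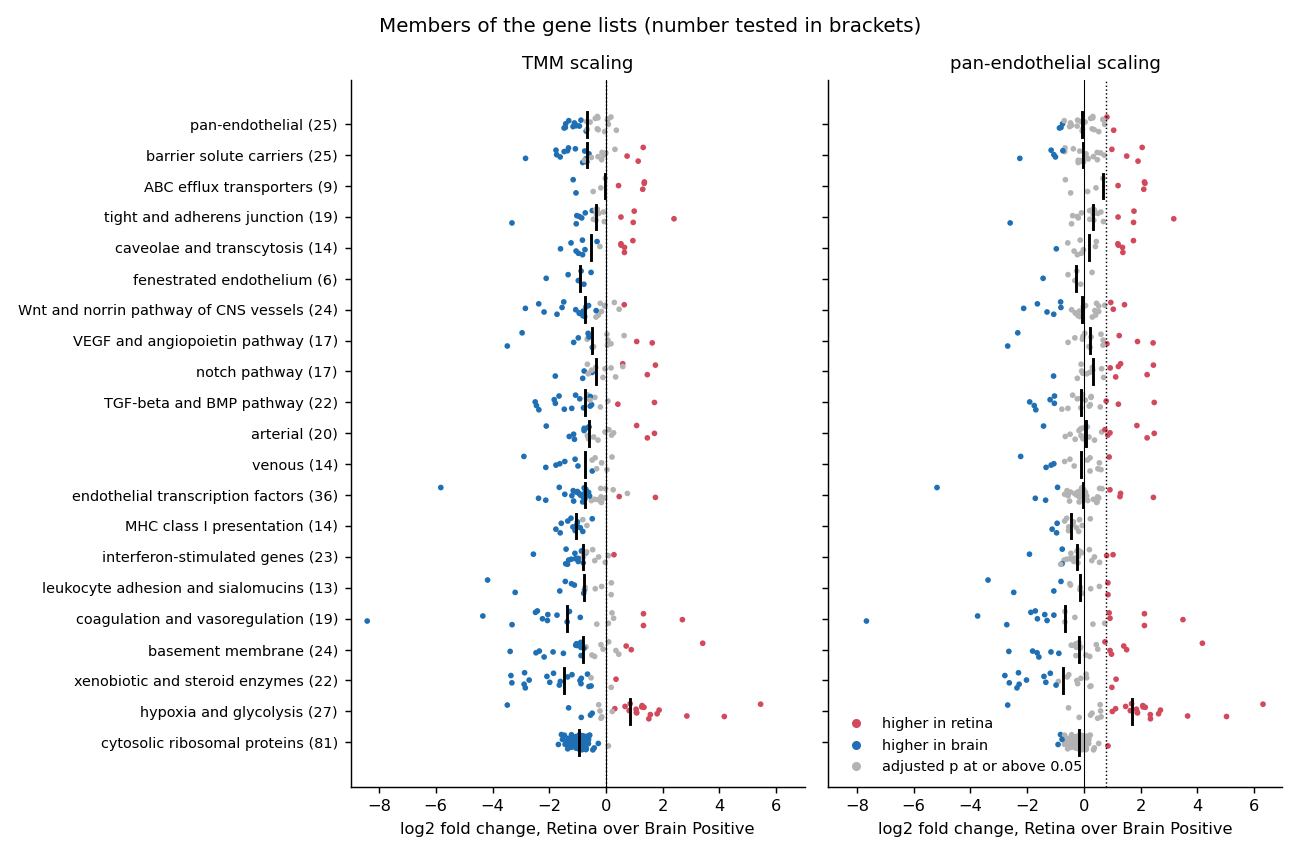
Log2 fold change of Retina over Brain Positive (x axis) for the tested members of 21 gene lists on TMM (left) and pan-endothelial scaling (right). Black bars mark list medians and the dotted line the median of all genes, and the pan-endothelial median moves from -0.66 to -0.05 while the median of glycolysis and hypoxia genes lies at 0.85 and 1.68.

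Among the 25 pan-endothelial markers themselves, 0 were higher in retina and 11 in brain on TMM scaling, and 24 in brain without Retina Positive 3. On pan-endothelial scaling, which is built from these genes and so centres them, 2 were higher in retina and 3 in brain. Pecam1, an adhesion molecule of endothelial junctions, stood at 348, 423 and 802 CPM against 707, 666 and 672, a log2 fold change of -0.38 ± 0.28 (SE, adjusted p = 0.25). Retina Positive 3 lay above all brain libraries and the other 2 lay below. Without Retina Positive 3, Pecam1, Cdh5, Slc2a1, Slc7a5, Abcb1a, Tspan12, Col4a1, Col4a2, Fli1, Eng, Acvrl1, Flt1 and Kdr, none of which passed on TMM scaling with all libraries, passed as lower in retina (log2 from -1.21 for Eng to -0.21 for Kdr). Per 1000 pan-endothelial counts, Cdh5 was at 38.6, 41.8 and 41.6 in retina and 30.7, 34.8 and 32.5 in brain. Ramp2, a subunit of the adrenomedullin receptor, was lower in retina on both scales (log2 -1.48 and -0.86), as was Emcn, an endothelial sialomucin (-1.43 and -0.81).

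Of 25 solute carriers of the barrier, 3 were higher in retina and 13 in brain on TMM scaling, with a median of -0.69. On pan-endothelial scaling 4 were higher in retina and 5 in brain, with a median of -0.01. Slc2a1, the glucose transporter GLUT1 (Entrez gene 20525, chr4:119108745-119137329), stood at 1136, 1298 and 2591 CPM against 1708, 1813 and 2020, and did not pass on either scale (log2 -0.14, adjusted p = 0.68, and 0.47, adjusted p = 0.19). Its values per 1000 pan-endothelial counts did not overlap, at 221, 235 and 244 in retina and 150, 166 and 190 in brain. The large neutral amino acid transporter Slc7a5 was similar in form, at 105, 125 and 128 against 61.5, 80.4 and 95.7 per 1000, with an adjusted p of 0.11 on that scale. Slc22a8, the organic anion transporter OAT3 (Entrez gene 19879, chr19:8591254-8611835), went the other way at 50.8, 50.0 and 122 CPM against 498, 580 and 517, 7.14-fold lower in retina and lower on both scales. Slc38a5, a glutamine transporter, stood at 17.9, 32.8 and 50.0 CPM against 76.2, 137 and 129, and was also lower in retina on both scales.

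Of 9 ABC pumps, 4 were higher in retina and 2 in brain, and on pan-endothelial scaling 4 and 0. Without Retina Positive 3, 4 were higher in brain. Abcb1a, which encodes P-glycoprotein, stood at 421, 494 and 987 CPM against 757, 692 and 711 and did not pass on either scale (adjusted p = 0.59 and 0.26). Abcg2, the breast cancer resistance protein, stood at 86.7, 91 and 203 CPM against 253, 244 and 297. It was 2.08-fold lower in retina on TMM scaling (adjusted p = 0.016) and at 16.8, 16.5 and 19.1 against 22.1, 22.4 and 27.9 per 1000 pan-endothelial counts (adjusted p = 0.23). The TMM call of Abcg2 ended without Retina Positive 1 (adjusted p = 0.0514), Retina Positive 2 (0.0562) or Brain Positive 3 (0.0512). Abcc1 and Abcg1, higher in retina by 2.56-fold and 2.55-fold, were not enriched by either pull-down, with Positive over Input log2 fold changes from -0.9 to -0.3.

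Of 19 junction genes, 4 were higher in retina and 7 in brain, and 13 in brain without Retina Positive 3. On pan-endothelial scaling these counts were 4 and 1. Cldn5, the main claudin of both barriers (Entrez gene 12741, chr16:18776847-18778262), stood at 772, 739 and 1130 CPM against 1842, 1707 and 1511, 1.92-fold lower in retina (adjusted p = 0.002). Relative to endothelial RNA it stood at 150, 134 and 107 per 1000 against 161, 156 and 142, which overlap (adjusted p = 0.53). Cgn, cingulin, was higher in retina at 21.7, 22.9 and 22.6 CPM against 4.58, 3.74 and 4.44, and Pard6g, a polarity adaptor, was lower at 7.91, 5.79 and 8.30 against 64.0, 85.3 and 73. The call of Pard6g held on pan-endothelial scaling.

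Genes of caveolae and vesicular transport split as 5 higher in retina and 8 in brain of 14, and as 5 and 1 on pan-endothelial scaling. Cav1, the coat protein of caveolae, stood at 135, 141 and 201 CPM against 285, 281 and 282, 1.78-fold lower in retina, but at 26.1, 25.6 and 18.9 against 25.0, 25.8 and 26.5 per 1000 pan-endothelial counts. Mfsd2a, the lipid transporter that limits transcytosis at the barrier, stood at 71.6, 59.0 and 149 CPM against 168, 161 and 169 (adjusted p = 0.042 on TMM and 0.57 on pan-endothelial scaling). The TMM call of Mfsd2a ended without Retina Positive 1 or 2 or any Brain Positive library (adjusted p from 0.0827 to 0.131). Of 6 tested genes of fenestrated vessels, all were higher in brain on TMM scaling and 1 on pan-endothelial scaling. Plvap, the diaphragm protein of fenestrae, stood at 19.3, 15.3 and 17.4 CPM against 49.1, 40.4 and 42.0.

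**Figure D5:**
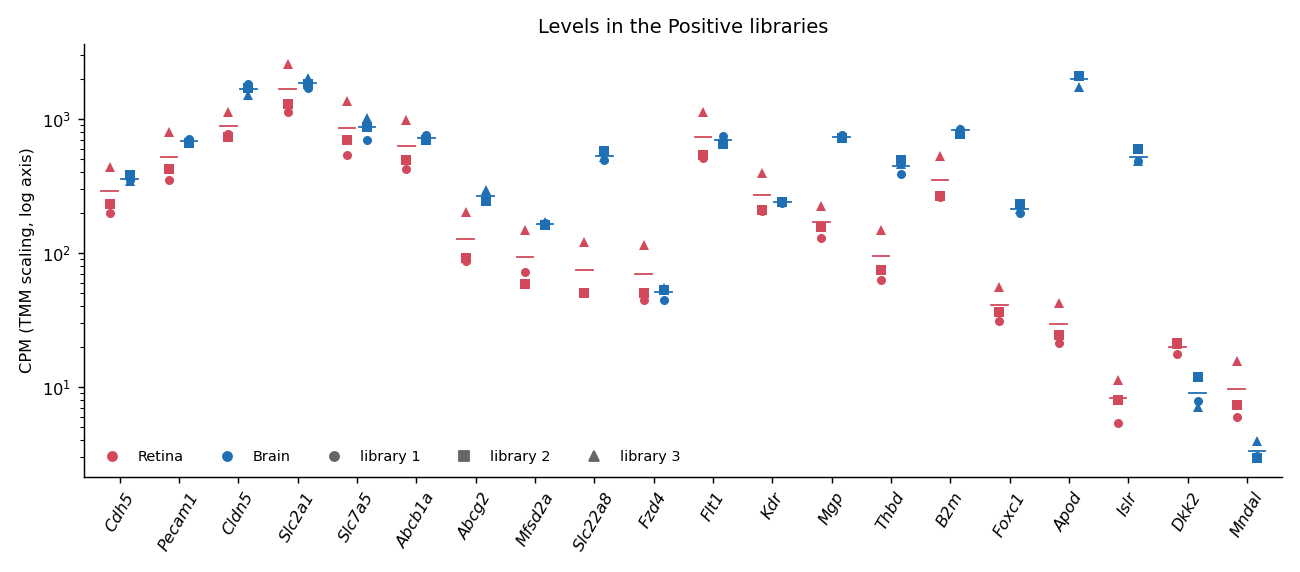
CPM (log y axis, TMM scaling) of 20 named genes in each Retina (red) and Brain (blue) Positive library, with the symbol giving the library number and a bar the mean of 3. Retina Positive 3 is the highest retina library for most of these genes, as for Pecam1 at 802 against 348 and 423, while Slc22a8, Apod and Islr stay below the brain values in every library.

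Of 24 genes of the Wnt and norrin pathway, 1 was higher in retina and 15 in brain, and on pan-endothelial scaling 3 and 6, with medians of -0.73 and -0.08. Among receptors, Fzd4 (Entrez gene 14366, chr7:89404366-89410110) stood at 44.5, 50.6 and 115 CPM against 44.8, 53.1 and 55.2 (adjusted p = 0.24). Per 1000 pan-endothelial counts it was at 8.65, 9.18 and 10.9 against 3.92, 4.87 and 5.19, higher in retina with a log2 fold change of 1.04 and an adjusted p of 0.0072. Fzd4 was also higher in Retina Input, at 18.7, 18.8 and 14.6 CPM against 4.05, 3.64 and 3.36, and its interaction was -1.76 ± 0.44 (SE, adjusted p = 0.0055). Its partner Tspan12 stood at 35.1, 33.6 and 61.3 CPM against 57.2, 52.7 and 57.1 and did not pass on either scale (adjusted p = 0.18 and 0.48). Notum, a secreted Wnt deacylase and target of the pathway, was lower in retina on both scales, at 9.53, 10.0 and 12.5 CPM against 82, 85.9 and 62.7. Tcf7l2, a nuclear partner of beta-catenin, was lower as well, at 6.23, 5.26 and 6.69 against 34.9, 31.0 and 29.2, but it was not enriched by either pull-down. The 2 other members that were higher in retina on pan-endothelial scaling, named after their values were seen, were the co-receptor gene Reck and the ligand gene Ndp.

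Of 17 genes of the VEGF and angiopoietin pathway, 2 were higher in retina and 7 in brain, and 14 in brain without Retina Positive 3. On pan-endothelial scaling 4 were higher in retina and 2 in brain. The VEGF receptor gene Flt1 stood at 515, 542 and 1136 CPM against 746, 653 and 697 (adjusted p = 0.85), and at 100.0, 98.3 and 107 against 65.4, 59.8 and 65.5 per 1000 pan-endothelial counts (adjusted p = 0.063). Kdr, the main signalling VEGF receptor, stood at 206, 208 and 396 CPM against 238, 240 and 241, and at 40.0, 37.6 and 37.3 against 20.8, 22 and 22.6 per 1000 (log2 0.81, adjusted p = 0.029). Kdr was high in whole retina, at 178, 166 and 143 CPM in Input against 7.46, 7.01 and 8.08 in brain, so its Positive over Input log2 fold change was 0.79 in retina and 5.02 in brain. The part of whole-retina RNA in its Positive value was not tested. Angpt2, an antagonist ligand of the Tie2 receptor, stood at 5.63, 5.26 and 9.50 CPM against 42.8, 58.5 and 60.3, and Egln3, an oxygen-sensing hydroxylase, at 5.63, 6.05 and 5.05 against 59.3, 66.8 and 59.0. Both were lower in retina on both scales, but Egln3 was enriched over Input in the brain pull-down alone (log2 2.43 against -0.37).

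Arterial genes numbered 3 higher in retina and 8 in brain of 20, and 6 and 1 on pan-endothelial scaling. Venous genes numbered 0 and 8 of 14, and 1 and 4. Mgp, an inhibitor of calcification and BMP signalling in arteries, stood at 130, 156 and 223 CPM against 761, 716 and 716, 4.30-fold lower in retina and lower on both scales. Bmx, an arterial tyrosine kinase, was at 6.47, 6.14 and 5.91 per 1000 pan-endothelial counts against 3.82, 3.29 and 3.21 (adjusted p = 0.033 on that scale and 0.49 on TMM). Car4, a membrane carbonic anhydrase placed in the venous list, stood at 45.0, 34.8 and 68.0 CPM against 409, 329 and 366. Nr2f2, the transcription factor of vein identity, stood at 37.0, 41.0 and 39.1 CPM against 94.7, 117 and 109 (adjusted p = 1.1e-05 on TMM and 0.083 on pan-endothelial scaling).

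Of 17 Notch genes, 3 were higher in retina and 4 in brain, and on pan-endothelial scaling 6 and 1. Without Retina Positive 3, 2 were higher in retina and 9 in brain. Notch1 stood at 67.6, 64.7 and 133 CPM against 59.1, 58.2 and 59.5 (adjusted p = 0.071 on TMM, 0.0423 and 0.0369 without Retina Positive 1 or 2, and 0.0014 on pan-endothelial scaling), and Notch2 at 24.8, 16.5 and 26.9 against 73.6, 93.2 and 71, lower in retina on both scales. Notch2 had Positive over Input log2 fold changes of -0.41 in retina and 1.97 in brain. Of 22 TGF-beta and BMP genes, 2 were higher in retina and 14 in brain, and 3 and 6 on pan-endothelial scaling. The co-receptor gene Eng stood at 293, 305 and 692 CPM against 646, 738 and 697, and its receptor partner Acvrl1 at 191, 210 and 423 against 473, 429 and 403, and neither passed on either scale (adjusted p from 0.066 to 0.92). Id2, a target of BMP signalling, was 5.46-fold lower in retina at 13.9, 14.3 and 19.8 CPM against 100.4, 83.1 and 80.6. Htra3, a secreted protease, was 5.64-fold lower at 13.4, 11.2 and 27.1 against 90.3, 115 and 91.1.

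Endothelial transcription factors numbered 2 higher in retina and 23 in brain of 36, and 4 and 4 on pan-endothelial scaling. Erg, which maintains endothelial identity, stood at 51.2, 58.2 and 103 CPM against 123, 114 and 109, and Fli1, its relative, at 35.0, 42.8 and 66.7 against 54.6, 44.2 and 47.8. On pan-endothelial scaling neither passed (adjusted p = 0.90 and 0.10). The TMM call of Erg (adjusted p = 0.031) ended without Retina Positive 1 or 2 or any Brain Positive library (adjusted p from 0.0571 to 0.0982). Foxc1 stood at 31.3, 36.3 and 55.3 CPM against 198, 231 and 212, 5.20-fold lower in retina, and at 6.08, 6.58 and 5.21 against 17.3, 21.2 and 19.9 per 1000 pan-endothelial counts. Zic1, which was not enriched by either pull-down, stood at 3.12, 2.37 and 4.09 CPM against 174, 203 and 183.

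Immune genes were read beside the enriched class, of which 328 of 523 were higher in brain on TMM scaling. Of 14 genes of MHC class I presentation, 0 were higher in retina and 12 in brain, and 0 and 3 on pan-endothelial scaling. B2m, the light chain of class I molecules, stood at 260, 265 and 525 CPM against 849, 772 and 850, and at 50.4, 48.1 and 49.5 against 74.4, 70.8 and 79.9 per 1000 pan-endothelial counts (log2 -0.60, adjusted p = 0.10). Its 3 retina values lay below the 3 brain values on both scales. The class I genes of the H2 cluster share reads with close copies, so single values such as those of H2-T22, at 25.1, 27.7 and 47.1 CPM against 127, 105 and 109, are uncertain. Of 23 interferon-stimulated genes, 1 was higher in retina and 14 in brain, and 2 and 3 on pan-endothelial scaling, with 0 and 21 on TMM scaling without Retina Positive 3. Ifitm2 and Ifitm3, which restrict virus entry, were 5.89-fold and 2.68-fold lower in retina and lower on both scales. Of 13 leukocyte adhesion genes, 0 were higher in retina and 8 in brain, and 2 and 4 on pan-endothelial scaling. Icam1, a ligand for leukocyte integrins, stood at 10.1, 14.1 and 28.5 CPM against 55.2, 59.4 and 50.2.

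Of 19 tested genes of coagulation and vessel tone, 3 were higher in retina and 12 in brain, and 5 and 9 on pan-endothelial scaling. The lowest member was Ptgds, the product of meninges and choroid plexus given above, with a log2 fold change of -8.42. Thbd, thrombomodulin, stood at 62.5, 74.7 and 148 CPM against 390, 498 and 463, 4.72-fold lower in retina, and Tfpi, the tissue factor pathway inhibitor, at 4.93, 6.49 and 11.5 against 71.1, 83.8 and 76.7. F3, tissue factor itself, stood at 6.32, 4.30 and 10.4 CPM against 132, 152 and 157. All 3 were lower in retina on both scales, and F3 was enriched over Input in brain (log2 1.4) but not in retina (-0.4). Vwf, von Willebrand factor, stood at 279, 319 and 478 CPM against 300, 349 and 281 (adjusted p = 0.36). Per 1000 pan-endothelial counts it was higher in retina, at 54.2, 57.8 and 45.1 against 26.3, 32.0 and 26.4 (log2 0.89, adjusted p = 0.016).

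Basement membrane genes numbered 3 higher in retina and 13 in brain of 24, and 6 and 6 on pan-endothelial scaling. Col4a1 and Col4a2, the main vascular collagen IV chains, did not pass on either scale, with Col4a1 at 143, 147 and 353 CPM against 239, 338 and 329. Col15a1 stood at 3.53, 2.02 and 2.81 CPM against 20.8, 39.9 and 28.5, and Col4a3, a chain of specialised membranes, at 21.9, 22.6 and 22.4 against 1.93, 1.39 and 2.97. Neither was enriched by the retina pull-down. Of 22 xenobiotic and steroid enzymes, 1 was higher in retina and 19 in brain, and 2 and 10 on pan-endothelial scaling. Gstm1, a glutathione transferase, stood at 27.5, 26.0 and 39.8 CPM against 299, 319 and 316, and Ddc, which makes dopamine and serotonin, at 7.21, 5.44 and 14.2 against 92.3, 87.6 and 103. Akr1c14, a steroid-reducing enzyme enriched by both pull-downs, stood at 5.49, 8.42 and 15.8 CPM against 61.9, 78.7 and 80.1.

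Of 27 tested genes of glycolysis and the hypoxia response, 17 were higher in retina and 5 in brain, and 18 and 1 on pan-endothelial scaling. Hk2, the inducible hexokinase (Entrez gene 15277, chr6:82725027-82774454), stood at 358, 288 and 198 CPM in Retina Positive and at 4.68, 6.82 and 7.73 in Brain Positive, 43.7-fold higher. The monocarboxylate transporter Slc16a3 stood at 76.1, 68.4 and 46.3 CPM against 4.18, 3.20 and 3.24, and Hk1 at 1140, 1233 and 917 against 311, 295 and 293. All 3 were lowest in Retina Positive 3 among the retina libraries. They were no higher in Positive than in Input (log2 fold changes from -0.67 to -0.04 over both tissues), and Hk2 stood at 428, 416 and 328 CPM in Retina Input. The lowest member was Egln3, the oxygen-sensing hydroxylase given above, with a log2 fold change of -3.48.

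Of 81 tested ribosomal protein genes, 0 were higher in retina and 80 in brain on TMM scaling, with a median log2 fold change of -0.97, while the Input median was -0.12. The interaction of tissue and fraction was below 0 and past the threshold for 79, against 2482 of all 12438 genes. On pan-endothelial scaling 1 was higher in retina and 3 in brain, with a median of -0.18. With Retina Positive 1 and 2 only, that scaling gave 28 higher in retina and 15 in brain, with a median of 0.08. Rpl10a, whose protein carries the tag, stood at 274, 285 and 340 CPM against 509, 549 and 503. Ribosomal protein genes have many processed copies, so their single values are uncertain. Of 14 immediate early genes, 1 was higher in retina and 11 in brain, and 2 and 2 on pan-endothelial scaling. Fos stood at 34.8, 31.0 and 25.8 CPM against 35.1, 22.5 and 18 (adjusted p = 0.33, and 0.025 without Brain Positive 1) and Egr1 at 24.4, 18.9 and 19.9 against 83.8, 68.6 and 71.

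Whole tissue gives a further reference. Between Retina and Brain Input, 9398 genes (75.6%) differed, 4696 higher in retina and 4702 in brain. The difference between Positive fractions departed from that between Inputs for 6072 genes (48.8%), 3590 of them with an interaction above 0 and 2482 below. For 549 genes (4.41%) the Positive and the Input difference both passed and ran in opposite directions, 251 higher in Retina Positive and 298 higher in Brain Positive.

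Islr2, a neuronal transmembrane protein of the immunoglobulin and leucine-rich repeat type (Entrez gene 320563, chr9:58196297-58204319), was the largest of the first kind by rule. It stood at 129, 162 and 328 CPM in Retina Positive and at 37.2, 47.6 and 48.0 in Brain Positive, but at 25.2, 26.5 and 30.2 in Retina Input and 56.6, 80.3 and 73.2 in Brain Input. It followed Retina Positive 3, and its Positive over Input log2 fold change was 2.98 in retina and -0.63 in brain. Anxa1, annexin A1 (Entrez gene 16952, chr19:20373434-20390671), was of the second kind, at 19.4, 25.2 and 33.9 CPM in Retina Positive against 73.6, 82.4 and 90.6 in Brain Positive, and at 16.5, 18.4 and 18.3 in Retina Input against 3.30, 3.01 and 2.92 in Brain Input. Efemp1, a matrix glycoprotein, stood at 28.7, 21.8 and 46.4 CPM against 238, 248 and 211 in Positive, and Cyp1b1, an oxidase of steroids and retinoids, at 12.3, 10.4 and 16.4 against 73.7, 98.0 and 86.1. Both were higher in Retina Input than in Brain Input, with log2 fold changes of 1.34 and 1.27. The other genes named by this rule were Cttnbp2, Wscd2, Synj2, Sybu and Rap1gap, higher in Retina Positive, and Rab11fip1, Myof and Uaca, higher in Brain Positive. On pan-endothelial scaling Myof, Uaca and Rab11fip1 did not pass (adjusted p from 0.055 to 0.12).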

How the data were processed

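RNA of Input and Positive fractions was sequenced from retina and brain, 3 libraries each, with a directional kit per the labels' protocols. The columns headed raw, deposited by the authors, carry fractional values, read here to be expected counts. The columns headed normalized hold log2 values that the authors computed, which were not used. Genes were kept by the authors at a raw value of at least 50, per the file headers. Per the submitters' processing notes, the build was mm10 and DESeq was used. Neither aligner, counting program nor strand setting is stated there (not given in the sources used here).

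Expected counts deposited by the authors were rounded and joined by Entrez identifier. All 12438 shared genes, fitted together, passed filterByExpr in edgeR 4.0.16 (minimum count 10). TMM scaling and the quasi-likelihood F test on 6 libraries (4 residual degrees of freedom) gave log2 fold changes, SE and Benjamini-Hochberg adjusted p-values, with a threshold of 0.05. A fit of 12 libraries, without pairing Input and Positive of the same homogenate, gave the Input difference, the interaction and Positive over Input. Levels are TMM-normalised CPM, with Input CPM from the 12-library fit. Genes in 1 table alone are given as CPM over the TMM-scaled total counts of the shared genes, which leave these genes out. Their ratios of Positive to Input use the shared-gene totals without TMM scaling. Total counts limit precision through counting error only, and no full library depths are known. The scripts were tested on simulated data in which a small part of the genes changed, up and down alike. Such data do not test the choice of scaling.

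Named genes are the 12 largest differences each way (past the threshold, no overlap, level at or above the median), the 15 largest each way in the enriched class, of each of 39 lists the first 2 members and the 2 with the largest change, and 6 each way past the threshold in opposite directions in Positive and Input. Predicted, clone and pseudogene symbols were left out of these, and a few named otherwise were chosen after their values were seen. The comparison, its members and the lists were chosen with earlier results of these data known. Alternatives were another size factor, pan-endothelial scaling, other filters, a replicate block, each library left out in turn, and a Wald test in DESeq2 1.42.0. Non-overlap of values per 1000 pan-endothelial counts was added after seeing the data, as were Retina Positive 3 alone and pan-endothelial scaling with Retina Positive 1 and 2 only. A few genes that the rule names are not reported here.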

Additional observations from a re-analysis of the deposited data

Results flagged for a closer look

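The difference between Retina and Brain Positive departed from that between Retina and Brain Input, by the interaction term of the 12-library edgeR fit, for 6072 genes. Of the genes that differed in opposite directions in Positive and Input, the log2 interaction (retina minus brain) was 3.61 for Islr2, 2.19 for Wscd2, 1.82 for Cttnbp2, 1.57 for Rap1gap, 1.45 for Synj2 and 1.44 for Sybu. It was -4.16 for Anxa1, -4.15 for Efemp1, -3.96 for Cyp1b1, -2.77 for Rab11fip1, -2.70 for Myof and -2.63 for Uaca. These genes were picked as the largest of their kind, so their sizes describe the extreme end of that set.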

How the results depend on the processing

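Of the 178 named genes, 1 changed direction, 21 lost their call and 7 gained one on pan-endothelial scaling (Pdpn went to 0.042; the gains were Bmx, Fos, Fzd4, Gngt2, Kdr, Notch1 and Vwf). Sign changes of genes called under neither setting are not counted here. With Retina Positive 3 alone against Brain Positive, an alternative added after seeing the data, the log2 fold change became 0.45 for Abcb1a, 0.29 for Cdh5, 0.56 for Col4a2, 0.44 for Fli1, 0.23 for Pecam1, 0.48 for Slc2a1 and 0.64 for Slc7a5. On pan-endothelial scaling with Retina Positive 1 and 2 only, also added later, it became 0.39 for Abcb1a, 0.006 for Cav1, 0.30 for Cdh5, 0.43 for Col4a2, 0.71 for Fli1, 0.047 for Fosb, 0.74 for Mitf, 0.14 for Pdpn, 0.22 for Pecam1, 0.15 for Rpl10a, 0.44 for Slc2a1, 0.54 for Slc7a5 and 0.35 for Tspan12. Leaving out 1 library each moved Flt1 between -0.40 and 0.27 and Kdr between -0.21 and 0.34, with the lowest values without Retina Positive 3. The 8725 calls became 4607 over genes at or above the median level and 5194 over genes listed in all 3 tables, where fewer genes were tested. The 334 calls in the enriched class became 161 on pan-endothelial scaling, 202 at or above the median level and 629 in a class at least 2-fold enriched (919 genes). Leaving out 1 library each gave 7652 to 9379 calls in all, 267 to 486 in the class and 4463 to 6702 interactions. Same-numbered retina and brain libraries deviated from their group means with correlations of 0.075, -0.047 and 0.050. Not every library correlated best with its own number. Whether same-numbered libraries came from the same animal is not stated, and correlations over so few libraries cannot decide it. With a block by library number across the tissues the calls were 8484 in all and 384 in the class. For the interaction, a block joining Input and Positive of the same tissue and number gave 6090. The retina libraries are shallower than the brain libraries, and with 3 libraries a side small differences can be missed.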
